A study of Mus musculus with 13 samples.

Results

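Genes that drive DNA replication and mitosis were followed in the sciatic nerve of BKS mice carrying the db mutation of the leptin receptor. The set was a list of 55 symbols, and 51 of them had a probe set among the 15437 genes measured. Levels of Mki67, Ccnb1, Ube2c and Pcna were not analysed here. By the step of the cycle in which each product is known to act, 26 measured members were placed with mitosis, 19 with DNA replication and the entry into S phase, and 6 with the control of G1. RNA came from 6 sciatic nerve samples of db/db mice (110, 111, 112, 409, 410 and 411). The 7 samples of db/+ mice were 101, 103, 104, 105, 106, 404 and 407. All were from mice of the BKS strain at 24 weeks of age. Mice with 2 db alleles grow obese and diabetic, mice with 1 are the nondiabetic control, and both groups thus carry at least 1 db allele. The comparison asked which transcripts differ between the genotypes in this model of diabetic neuropathy. Expression was measured on 1-colour arrays and is given as log2 levels, so that a difference of 1 stands for a doubling. Differences are db/db minus db/+ on the log2 scale, ± marks their SE (n = 6 db/db and 7 db/+ arrays), and adjusted p-values are limma's with Benjamini-Hochberg adjustment over all 15437 genes.

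A cell that divides first passes a G1 checkpoint, where D and E cyclins with their kinases release the E2F transcription factors and the inhibitors of the Cdkn families hold the kinases back. The E2F factors switch on genes of origin licensing, nucleotide supply and the replication fork. Genes of the spindle, the kinetochore and the exit from mitosis follow later, under the factors B-Myb and FoxM1. Most cells of an adult nerve, Schwann cells among them, are outside the cycle. In RNA from whole tissue, more dividing cells and more RNA per dividing cell cannot be told apart.

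The 13 arrays were alike in median level (8.63 to 8.71), which the normalization of the deposited levels brings about. Any pair of them correlated at 0.894 or above across genes. The 6 Schwann cell markers measured had a mean level of 10.41 to 11.55 in db/db nerve, against 10.996 to 12.10 in db/+ nerve. Samples db/+ 101, 103, 104 and 106 stood apart through neuronal transcripts. The mean of 10 neuronal markers was 7.14 to 7.83 in db/db nerve, 11.74 to 12.51 in these 4 db/+ arrays and 7.92 to 9.07 in db/+ 105, 404 and 407. Results are therefore also given without these 4 arrays. The labels give every sample a number but do not say that each came from its own animal, so p-values measure only the spread between these samples.

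Mitosis genes were higher in db/db nerve. Of 26 measured members 18 rose, 0 fell and 8 did not pass an adjusted p of 0.05 (limma, adjusted over all genes), while 13.4% of all genes passed in this direction. The difference was above 0 in all 26 members, as in 52% of all genes. Its median was 1.43, against 0.02 over all genes. All db/db arrays were above all db/+ arrays in 8 of the 26 members, as in 6.17% of all genes, and in 0 members did all lie below, as in 3.51% of all genes. By mean level, 9 of the 26 lay among the dimmest 25% of all genes (at or below 6.29), and the values carry no detection call. The dim members were Nek2, Bub1, Melk, Ttk, Aurkb, Kif11, Kif23, Kif2c and Cenpe.

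**Figure D1:**
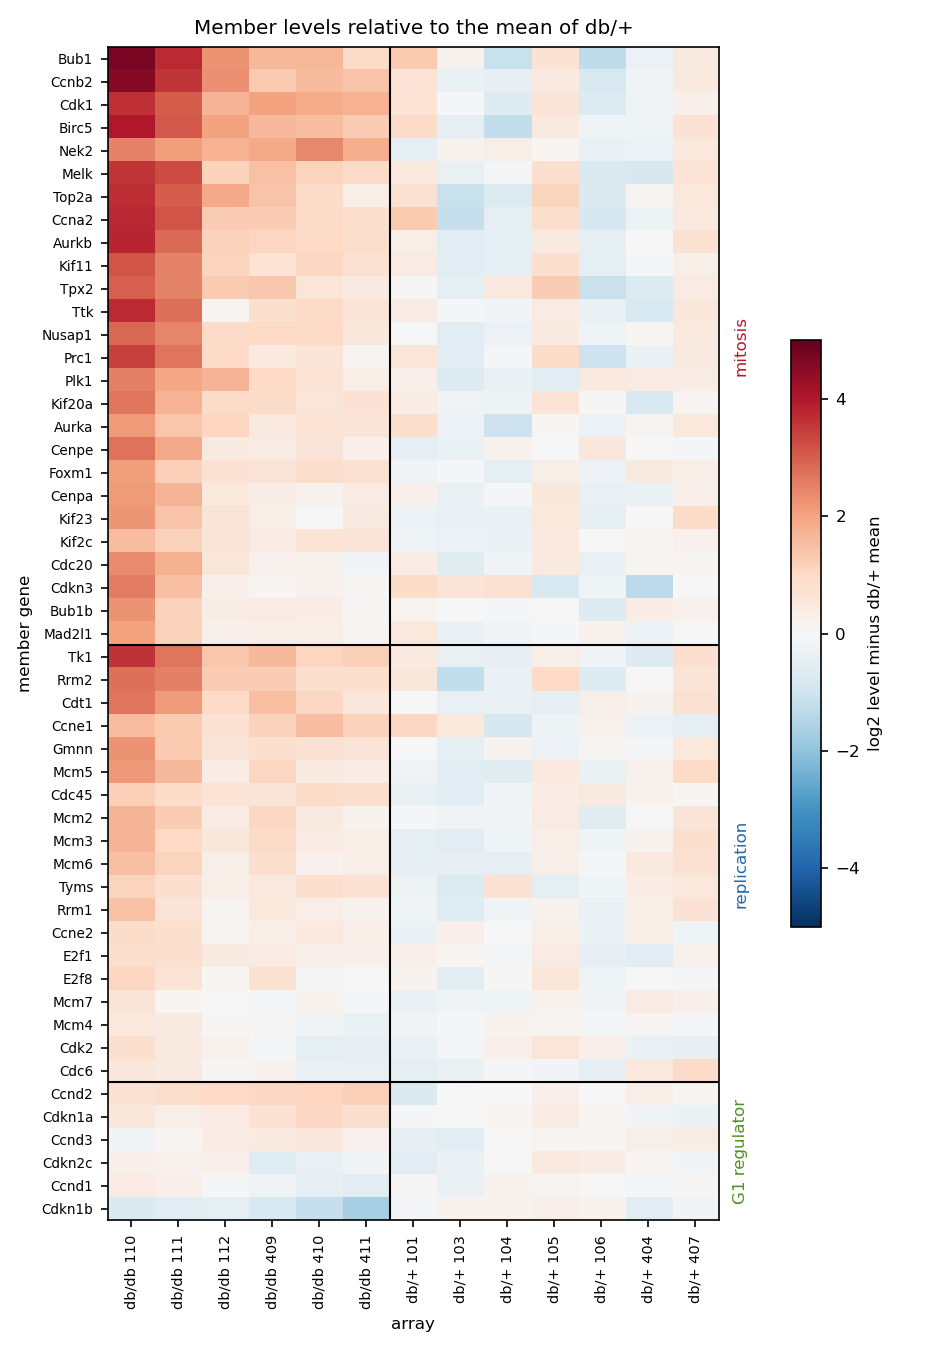
Log2 level of each of the 51 measured members (rows, grouped by phase and sorted by difference) on each array (columns, db/db left of the line and db/+ right of it), minus the mean of the 7 db/+ arrays for that member. Red is above and blue below the db/+ mean. Columns db/db 110 and 111 are the deepest red across the mitosis block, and Nek2 and Ccnd2 are raised to a like degree on all 6 db/db arrays.

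The kinase gene Nek2, whose product separates the centrosomes before mitosis, had the smallest p of the set. Its levels were 5.41 (lowest), 5.67 (median) and 6.14 (highest) in db/db nerve, against 3.23, 3.77 and 4.19 in db/+ nerve. The groups were more than 1 log2 unit apart, and Nek2 rose by 2.08 ± 0.18 (adjusted p = 1.24e-05), which is 4.22-fold. Nek2 is 1 of the dim members, so this fold rests on low levels without a detection call. Cdk1, the kinase that starts mitosis, had levels of 9.41, 9.63 and 11.33 in db/db nerve, against 7.01, 7.58 and 8.39 in db/+ nerve. It rose by 2.33 ± 0.35 (adjusted p = 0.000546). All 6 db/db arrays lay above all 7 db/+ arrays for Cdk1 and Nek2, and both passed without db/+ 101, 103, 104 and 106 (difference 2.08 and 1.97, adjusted p = 0.0152 and 0.00102).

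Ccnb2, a B-type cyclin that binds Cdk1, had levels of 7.01, 7.63 and 10.24 in db/db nerve, against 4.92, 5.52 and 6.37 in db/+ nerve. It rose by 2.46 ± 0.50 (adjusted p = 0.00406), and the groups did not overlap. Birc5, which encodes survivin of the chromosomal passenger complex, had levels of 9.42, 9.99 and 12.15 in db/db nerve, against 6.92, 7.93 and 9.10 in db/+ nerve. Its groups were also apart, and it rose by 2.25 ± 0.47 (adjusted p = 0.00445). Aurkb, the kinase of the same complex, rose by 1.79 ± 0.47 (adjusted p = 0.0153). Without the 4 db/+ arrays with high neuronal transcripts Ccnb2, Birc5 and Aurkb stood at 2.18, 1.92 and 1.39 and did not pass (adjusted p = 0.0708, 0.0564 and 0.198). With the sample number series (101 to 112 and 404 to 411) as a block on the same arrays, Ccnb2 and Birc5 passed at 1.93 and 1.73 (adjusted p = 0.0338 and 0.033), and Aurkb stood at 1.20 (adjusted p = 0.176).

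Promoters are shown for Nek2 and Cdk1, which had the smallest p of the mitosis members with a promoter entry, and for Ccnb2, which was added for its motifs after the values were seen. Mitotic promoters are known for CCAAT boxes and for the cell cycle homology region (CHR), and promoters of replication genes for E2F sites. Capitals mark matches to 3 kinds of motif, each on either strand. The CCAAT box was searched by its letters, and the CHR as TTTGAA and also as TTCGAA. For the E2F site the letters were TTCCCGC in the first form, TTGGCGC in the second form, TTGCCGC in the third form and TTCGCGC in the fourth form. A CCAAT box on the minus strand can share bases with TTGGCGC. The windows run from 250 bases before to 50 bases after the annotated start, are given 5′ to 3′ on the strand of the gene, and come from RefSeq on GRCm38.p6.
Nek2, chr1:191821223-191821522, plus strand: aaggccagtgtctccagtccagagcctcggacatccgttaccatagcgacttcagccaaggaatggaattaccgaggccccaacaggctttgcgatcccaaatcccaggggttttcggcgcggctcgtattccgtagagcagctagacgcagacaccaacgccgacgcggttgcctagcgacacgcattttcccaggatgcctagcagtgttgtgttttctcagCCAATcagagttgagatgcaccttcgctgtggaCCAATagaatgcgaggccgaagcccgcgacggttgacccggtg
Cdk1, chr10:69352863-69353162, minus strand: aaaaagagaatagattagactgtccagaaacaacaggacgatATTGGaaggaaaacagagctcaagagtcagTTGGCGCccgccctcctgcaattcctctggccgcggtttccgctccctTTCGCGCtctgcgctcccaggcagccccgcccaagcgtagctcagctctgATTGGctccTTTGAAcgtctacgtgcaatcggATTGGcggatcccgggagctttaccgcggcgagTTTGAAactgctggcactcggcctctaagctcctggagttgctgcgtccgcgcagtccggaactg
Ccnb2, chr9:70421505-70421804, minus strand: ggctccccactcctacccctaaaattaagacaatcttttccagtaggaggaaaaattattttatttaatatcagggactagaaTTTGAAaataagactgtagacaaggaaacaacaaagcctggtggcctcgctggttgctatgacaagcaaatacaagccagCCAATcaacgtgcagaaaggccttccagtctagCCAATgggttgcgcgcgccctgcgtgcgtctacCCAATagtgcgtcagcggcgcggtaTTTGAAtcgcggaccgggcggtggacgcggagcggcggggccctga
The Cdk1 window held 3 CCAAT boxes, 2 CHR matches and 2 E2F matches, and that of Ccnb2 held 3 CCAAT boxes and 2 CHR matches. Nek2 had 2 CCAAT boxes and 0 matches to the others.

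Among regulators of mitotic entry, Foxm1, the transcription factor of mitotic genes, had levels of 6.51, 6.69 and 7.96 in db/db nerve, against 5.38, 5.77 and 6.32 in db/+ nerve. It rose by 1.04 ± 0.24 (adjusted p = 0.00729), with no overlap between the groups. Plk1, a kinase of mitotic entry and spindle assembly, had levels of 7.08, 8.11 and 9.27 in db/db nerve, against 6.09, 6.997 and 7.26 in db/+ nerve. Its groups overlapped in db/db 411, and it rose by 1.36 ± 0.34 (adjusted p = 0.0126). The kinase gene Melk had levels of 5.96, 6.33 and 8.60 in db/db nerve, against 4.21, 4.95 and 5.87 in db/+ nerve, did not overlap between the groups and rose by 1.91 ± 0.48 (adjusted p = 0.0122). Ccna2, the cyclin of S phase and G2, and Aurka, the kinase of the spindle poles, rose by 1.88 and 1.07 (adjusted p = 0.0256 and 0.0281). Tpx2, which activates Aurka on the spindle, rose by 1.53 (adjusted p = 0.0302). In fits that left out 1 array, Ccna2 and Tpx2 passed in 9 of 13 and Aurka in 8 of 13.

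Of 7 genes of the spindle and of chromosome separation 5 rose, where 13.4% of all genes rose. Nusap1, a spindle microtubule protein, had levels of 8.36, 8.76 and 10.65 in db/db nerve, against 7.23, 7.79 and 8.27 in db/+ nerve and rose by 1.47 ± 0.36 (adjusted p = 0.0104). Kif2c, which takes down microtubules at centromeres, had levels of 5.61, 5.89 and 6.77 in db/db nerve, against 4.90, 5.20 and 5.72 in db/+ nerve and rose by 0.84 ± 0.19 (adjusted p = 0.00757). The groups did not overlap in Nusap1 and did in Kif2c. Kif11, the motor that makes the spindle bipolar, rose by 1.54 and Kif20a, a kinesin of cytokinesis, by 1.27 (adjusted p = 0.0155 and 0.0148). Top2a, which untangles sister chromatids, had levels of 6.37, 7.69 and 9.72 in db/db nerve, against 4.92, 6.16 and 7.15 in db/+ nerve and rose by 1.89 ± 0.54 (adjusted p = 0.0242). The cytokinesis genes Prc1 and Kif23 stood at 1.39 and 0.84 and did not pass (adjusted p = 0.0701 and 0.0898).

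The spindle checkpoint divided between members that passed and members that did not. Bub1, a checkpoint kinase at the kinetochore, had levels of 5.85, 6.83 and 9.61 in db/db nerve, against 3.60, 5.04 and 6.17 in db/+ nerve, and it rose by 2.49 ± 0.61 (adjusted p = 0.0106), the largest difference of the 51 members. Ttk, the kinase that starts checkpoint signalling, rose by 1.501 at the limit of the threshold (adjusted p = 0.0496) and passed in 3 of 13 fits that left out 1 array. The checkpoint genes Mad2l1 and Bub1b stood at 0.70 and 0.76 (adjusted p = 0.0816 and 0.0884). Cdc20, the target of the checkpoint and activator of the anaphase ligase, stood at 0.83, and the phosphatase gene Cdkn3 at 0.78 (adjusted p = 0.125 and 0.247). Of the centromere genes, the kinetochore motor gene Cenpe stood at 1.06 and the centromeric histone gene Cenpa at 0.88 (adjusted p = 0.0524 and 0.0579). Whether these members differ from Bub1 in their response was not tested.

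Replication genes were also higher in db/db nerve, with a smaller median difference. Of 19 measured members 12 rose, 0 fell and 7 did not pass, with differences between 0.08 and 1.93 and a median of 0.73, where 13.4% of all genes rose and 11.7% fell. All db/db arrays were above all db/+ arrays in 3 of the 19 (Cdc45, Gmnn and Tk1), as in 6.17% of all genes. Cdc45, a subunit of the replicative helicase, had levels of 8.37, 8.62 and 8.95 in db/db nerve, against 7.19, 7.81 and 8.19 in db/+ nerve. All db/db arrays were above all db/+ arrays, and Cdc45 rose by 0.87 ± 0.17 (adjusted p = 0.0028), a call that also held without the 4 db/+ arrays (0.66, adjusted p = 0.0156).

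Genes of the entry into S phase were led by Ccne1, an E-type cyclin, with levels of 8.49, 9.01 and 9.34 in db/db nerve, against 6.98, 7.51 and 8.79 in db/+ nerve. Ccne1 rose by 1.24 ± 0.26 (adjusted p = 0.00492), its groups overlapped through db/+ 101, and without the 4 db/+ arrays it stood at 1.57 (adjusted p = 0.00113). The second E-type cyclin gene, Ccne2, had levels of 8.21, 8.48 and 8.99 in db/db nerve, against 7.73, 8.09 and 8.35 in db/+ nerve and rose by 0.51 ± 0.16 (adjusted p = 0.0322). E2f1, the activator of the S phase programme, rose by 0.50 (adjusted p = 0.0452) and did not pass without the 4 db/+ arrays (0.46, adjusted p = 0.215). In fits that left out 1 array, E2f1 passed in 4 of 13 and Ccne2 in 7 of 13. On all arrays the repressor gene E2f8 stood at 0.42 and Cdk2, the kinase partner of the E cyclins, at 0.09 (adjusted p = 0.16 and 0.804). The E cyclins therefore passed and their kinase did not, though the difference between them was not tested.

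Some genes of origin licensing passed and others did not. Cdt1, which loads the MCM helicase, had levels of 8.34, 9.05 and 10.45 in db/db nerve, against 7.31, 7.75 and 8.55 in db/+ nerve and rose by 1.48 ± 0.32 (adjusted p = 0.00574). Gmnn, which encodes geminin, the inhibitor of Cdt1, had levels of 10.10, 10.21 and 11.71 in db/db nerve, against 9.01, 9.45 and 9.99 in db/+ nerve and rose by 1.07 ± 0.25 (adjusted p = 0.00943). Both genes of this opposing pair were thus higher in db/db nerve. Cdc6, the partner of Cdt1 in loading, stood at 0.08 (adjusted p = 0.845). Of the 6 MCM helicase subunits, Mcm2, Mcm3 and Mcm5 rose by 0.84, 0.83 and 1.01 (adjusted p = 0.0345, 0.0331 and 0.0471), where 13.4% of all genes rose. They passed in 6, 6 and 5 of 13 fits that left out 1 array. Mcm3 levels were 8.73, 9.16 and 10.09 in db/db nerve, against 7.88, 8.18 and 9.25 in db/+ nerve, with overlap between the groups. Mcm6, Mcm7 and Mcm4 stood at 0.73, 0.13 and 0.10 and did not pass (adjusted p = 0.0638, 0.569 and 0.634). Without the 4 db/+ arrays the differences of all 6 lay between −0.16 (Mcm7) and 0.50 (Mcm2). In that fit 0 of them passed, where 6.12% of all genes rose and 6.78% fell.

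Of 4 genes of nucleotide supply 3 rose, where 13.4% of all genes rose. Tk1, the thymidine kinase of S phase, had levels of 7.86, 8.30 and 10.42 in db/db nerve, against 6.15, 6.63 and 7.63 in db/+ nerve. The groups did not overlap, and Tk1 rose by 1.93 ± 0.40 (adjusted p = 0.0048). Rrm2, the regulated subunit of ribonucleotide reductase, had levels of 10.33, 10.80 and 12.28 in db/db nerve, against 8.29, 9.56 and 10.53 in db/+ nerve and rose by 1.57 ± 0.42 (adjusted p = 0.0172). Tyms, thymidylate synthase, rose by 0.72 (adjusted p = 0.0357), and Rrm1, the large subunit of the reductase, stood at 0.55 (adjusted p = 0.116). Tyms was the 1 replication member among the dimmest 25% of all genes and passed in 5 of 13 fits that left out 1 array.

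Promoters of replication members are shown for Cdc45, which had the smallest p, and for Rrm2, which was added after the values were seen because it holds an E2F match.
Cdc45, chr16:18811923-18812222, minus strand: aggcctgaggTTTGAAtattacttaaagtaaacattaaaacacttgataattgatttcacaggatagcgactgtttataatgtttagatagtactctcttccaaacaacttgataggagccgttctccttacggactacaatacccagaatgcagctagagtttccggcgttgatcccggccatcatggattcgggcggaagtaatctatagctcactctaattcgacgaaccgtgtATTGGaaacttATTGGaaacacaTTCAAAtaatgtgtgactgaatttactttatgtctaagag
Rrm2, chr12:24708004-24708303, plus strand: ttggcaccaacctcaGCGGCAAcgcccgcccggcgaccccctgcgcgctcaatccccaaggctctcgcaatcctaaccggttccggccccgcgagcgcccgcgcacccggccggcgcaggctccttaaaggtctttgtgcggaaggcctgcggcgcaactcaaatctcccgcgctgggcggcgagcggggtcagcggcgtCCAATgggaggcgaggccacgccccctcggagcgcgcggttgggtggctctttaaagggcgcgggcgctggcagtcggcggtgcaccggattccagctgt
Cdc45 had 2 CCAAT boxes and 2 CHR matches, and Rrm2 had 1 CCAAT box and 1 E2F match. Windows were held for 45 of the 55 listed genes, with Mki67, Ccnb1, Ube2c and Pcna among them. A CHR match stood in 17 of 24 mitosis promoters (70.8%), 4 of 17 replication promoters (23.5%) and 21.7% of the 27025 genes in the table. For CCAAT the shares were 79.2%, 64.7% and 41.1%. An E2F match stood in 3 of 24 mitosis promoters (12.5%), 10 of 17 replication promoters (58.8%) and 10.9% of all genes in the table. Among the 11806 genes of the arrays with a window, 16.9% held a CHR match and 17.1% an E2F match. These shares are a description, with no test between the phases. A match does not show that a factor binds there.

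**Figure D2:**
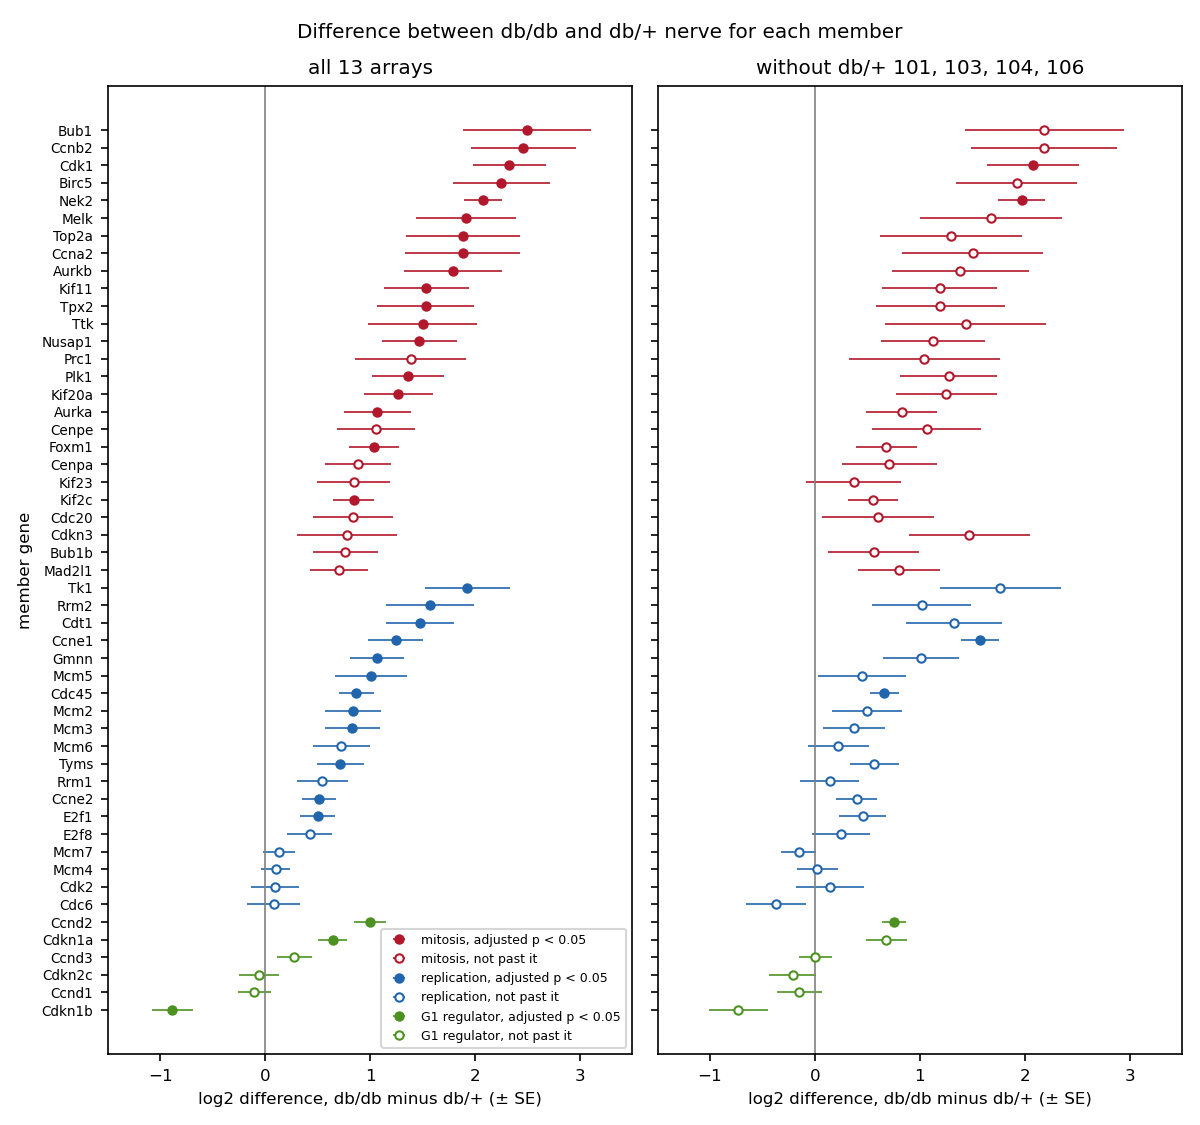
Log2 difference between db/db and db/+ nerve with its SE for the 51 members, on all 13 arrays (left) and without db/+ 101, 103, 104 and 106 (right). Filled points passed an adjusted p of 0.05 and open points did not. On the left 33 points are filled and on the right 5 (Cdk1, Nek2, Ccne1, Cdc45 and Ccnd2).

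The G1 regulators changed in both directions. Of 6 members 2 rose, 1 fell and 3 did not pass (13.4% and 11.7% of all genes rose and fell). Ccnd2, a D-type cyclin, had levels of 11.53, 11.80 and 11.97 in db/db nerve, against 10.04, 10.79 and 11.11 in db/+ nerve. No array of 1 genotype reached the other, and Ccnd2 rose by 0.996 ± 0.15 (adjusted p = 0.00061). Cdkn1a, the kinase inhibitor induced by the tumour suppressor protein of DNA damage, had levels of 11.004, 11.34 and 11.75 in db/db nerve, against 10.35, 10.69 and 11.07 in db/+ nerve, with overlap between the groups, and rose by 0.64 ± 0.14 (adjusted p = 0.00493). Cdkn1b, the inhibitor that keeps resting cells out of the cycle, had levels of 9.60, 10.51 and 10.81 in db/db nerve, against 10.68, 11.43 and 11.51 in db/+ nerve. It fell by 0.88 ± 0.20 (adjusted p = 0.00655), with overlap in db/+ 404. Both inhibitors lost their calls without the 4 db/+ arrays (0.68 and −0.73, adjusted p = 0.0518 and 0.121), while Ccnd2 kept its call (0.75, adjusted p = 0.00378). With the series of sample numbers (101 to 112 and 404 to 411) as a block on the same arrays both inhibitors passed, Cdkn1a at 0.70 and Cdkn1b at −0.83 (adjusted p = 0.0473 and 0.0221).

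The other D cyclins did not pass. Ccnd3 had levels of 10.16, 10.59 and 10.84 in db/db nerve, against 9.74, 10.36 and 10.66 in db/+ nerve, a difference of 0.28 (adjusted p = 0.231). Ccnd1 had levels of 9.39, 9.81 and 10.37 in db/db nerve, against 9.64, 10.01 and 10.12 in db/+ nerve, a difference of −0.10 (adjusted p = 0.656). Cdkn2c, an inhibitor of the kinases of the D cyclins, had levels of 11.32, 11.96 and 12.16 in db/db nerve, against 11.38, 11.91 and 12.39 in db/+ nerve, a difference of −0.06 (adjusted p = 0.843). In each of these 3 genes the ranges of the genotypes overlapped.

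Set array by array, the phases differed in how cleanly they separated the genotypes. The mean of the mitosis members was 9.32, 8.59, 7.42, 7.24, 7.21 and 6.99 in db/db 110, 111, 112, 409, 410 and 411. The same mean for db/+ 101, 103, 104, 105, 106, 404 and 407 was 6.72, 5.998, 6.05, 6.77, 5.93, 6.15 and 6.73. The lowest db/db array was thus above the highest db/+ array. For the replication members the means were 9.72, 9.29, 8.64, 8.89, 8.63 and 8.53 in the same db/db arrays, against 8.12, 7.85, 8.04, 8.39, 8.03, 8.25 and 8.58 in the db/+ arrays. Here db/+ 407 lay above db/db 411. The mean of the G1 regulators was 10.79 to 11.07 in db/db and 10.52 to 11.08 in db/+ nerve, with the groups mixed. These means describe the lists and were given no test.

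**Figure D3:**
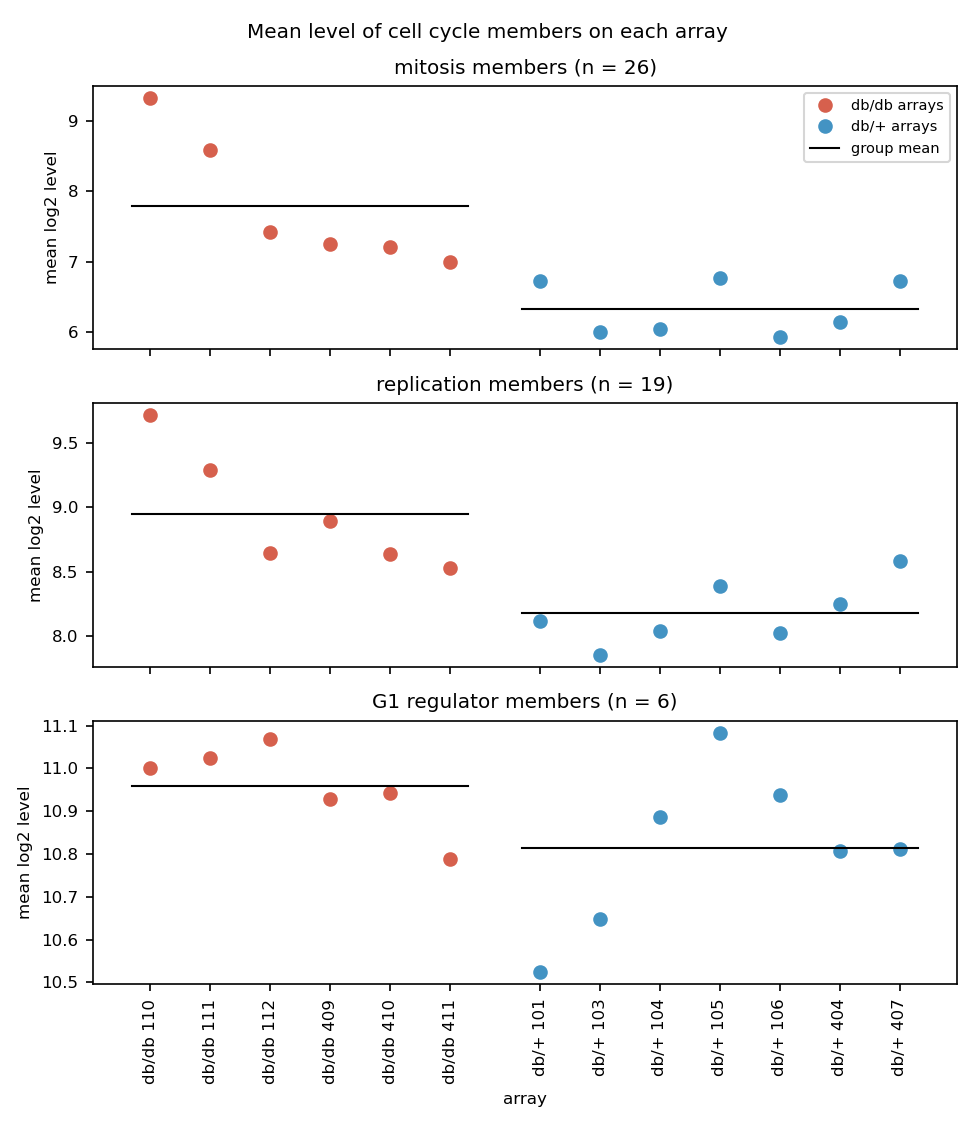
Mean log2 level of the mitosis (top), replication (middle) and G1 regulator (bottom) members on each array, with db/db arrays left and db/+ arrays right and a line at each group mean. The vertical axes differ and do not start at 0. Mitosis means of db/db arrays are all at or above 6.99 and those of db/+ arrays all at or below 6.77.

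Within db/+ nerve the mitosis mean averaged 6.17 in the 4 arrays with high neuronal markers and 6.55 in 105, 404 and 407. Single arrays did not all follow this order. With high neuronal markers, db/+ 101 had a mean of 6.72, while 103, 104 and 106 ranged over 5.93 to 6.05. Among the db/+ arrays with lower neuronal markers it was 6.15 in 404 and 6.73 and 6.77 in 407 and 105. For the replication members the 3 arrays 105, 404 and 407 were the highest of the db/+ group, at 8.25 to 8.58 against 7.85 to 8.12 in the other 4. Without those 4 arrays the median difference was 1.22 for mitosis and 0.45 for replication members, against 1.43 and 0.73 with them.

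The db/db arrays 110 and 111 carried the highest levels of mitosis transcripts. Earlier results of these data had already singled them out for their cell cycle levels, so their values are a description without a test. In 25 of 26 mitosis members, 12 of 19 replication members and 1 of 6 G1 regulators, 110 and 111 were the 2 highest of all 13 arrays, as in 5.45% of all genes. Mitosis members were higher in 110 and 111 than in the other 4 db/db arrays by a median of 1.83, with a range from 0.31 (Nek2) to 2.62 (Ttk). The median was 0.78 for replication members, 0.06 for G1 regulators and −0.05 over all genes. Array 110 was above 111 in all 26 mitosis and all 19 replication members, by a median of 0.75 and 0.37.

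Single genes show 2 patterns among the db/db arrays. Ttk was at 8.50 in 110 and 7.54 in 111, against 4.89 to 5.71 in the other 4 db/db arrays and 3.995 to 5.33 in db/+ nerve. Prc1 was at 11.04 and 10.29, against 7.78 to 8.61 in the other 4 and 6.57 to 8.55 in db/+ nerve. In both genes the other db/db arrays overlapped db/+ nerve. Nek2 instead was at 6.14 and 5.76 in 110 and 111, against 5.41 to 6.08 in the other 4, and Ccne1 at 9.33 and 9.09, against 8.49 to 9.34. Ccnd2 was lower in 110 and 111, at 11.53 and 11.67, than in the other 4 db/db arrays, at 11.79 to 11.97, and all 6 were above every db/+ array.

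**Figure D4:**
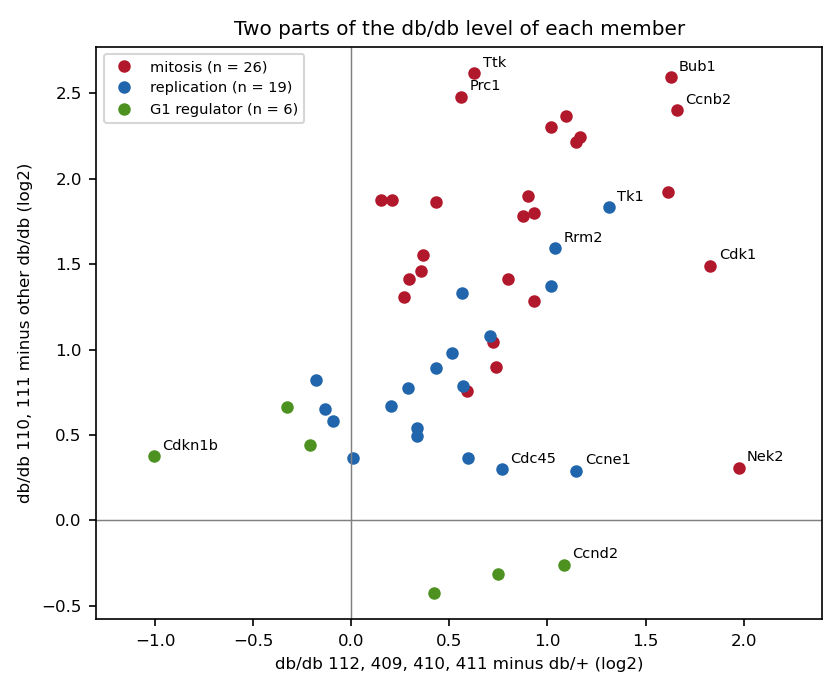
Each point is 1 of the 51 members. The vertical axis gives the mean log2 level of db/db 110 and 111 minus that of the other 4 db/db arrays, and the horizontal axis gives the mean of those other 4 minus the mean of the 7 db/+ arrays. All mitosis and replication members lie above 0 on the vertical axis, and Nek2, Ccne1 and Ccnd2 combine a high horizontal with a low vertical value.

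Without db/db 110 and 111, 19 of 51 members still rose and 1 fell (Cdkn1b), where 10.4% of all genes rose and 7.12% fell. These were 12 mitosis members, 5 replication members (Ccne1, Cdt1, Gmnn, Cdc45 and Tk1), Ccnd2 and Cdkn1a. All 20 calls were among the 33 made on all arrays. Because 110 and 111 were picked for their cell cycle levels, leaving them out can narrow the spread of members, and these p-values carry that limit. The median difference was 0.84 for mitosis members and 0.51 for replication members. The largest were Nek2, Cdk1, Ccnb2 and Bub1 at 1.98, 1.83, 1.66 and 1.63 (adjusted p = 0.000224, 0.00135, 0.00436 and 0.0359). Top2a and Ccna2 stood at 1.15 and 1.09 and did not pass (adjusted p = 0.102 and 0.0998).

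Set against db/+ 105, 404 and 407 only, all db/db arrays together gave smaller counts. In this fit 5 of 51 members rose and 0 fell, where 6.12% of all genes rose and 6.78% fell. The 5 were Cdk1, Nek2, Ccne1, Cdc45 and Ccnd2. When the number series was fitted as a block, these arrays gave 9 that rose and 1 that fell, where 8.95% of all genes rose and 10.4% fell: the same 5, with Ccnb2, Bub1, Birc5 and Cdkn1a, rose and Cdkn1b fell. Without the block the median difference was 1.22 for mitosis members, of which all 26 were above 0. It was 0.45 for replication members, of which 17 of 19 were above 0, as were 44% of all genes. With the block the medians were 1.01 and 0.37, and 26 of 26 and 15 of 19 were above 0, as were 6897 of all 15437 genes. All db/db arrays were above these 3 db/+ arrays in 13 of 26 mitosis, 4 of 19 replication and 1 of 6 G1 members, as in 8.98% of all genes. As a sign of RNA quality, the actin control read higher at its 3' than at its 5' probe set by 0.49 to 0.92 in db/db nerve, by 0.96 to 1.40 in the 4 db/+ arrays left out and by 0.40 to 1.14 in the 3 kept. Its part in the result was not tested.

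With db/db 110 and 111 left out as well, 8 members rose (Ccnb2, Cdk1, Bub1, Birc5, Nek2, Ccne1, Cdc45 and Ccnd2), where 5.69% of all genes did. Arrays 110 and 111 were picked for their cell cycle levels, so leaving them out can narrow the spread of members by selection. Ccnb2, Bub1 and Birc5 gained their calls with smaller differences and smaller SE. For Ccnb2 the difference was 1.38 ± 0.27 here, against 2.18 ± 0.69 with 110 and 111 kept. The median difference was then 0.56 for mitosis and 0.17 for replication members.

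The sample numbers form 2 series, 101 to 112 and 404 to 411, whose meaning is not stated. In arrays 404 to 411, 3 of db/db and 2 of db/+ nerve, 7 of 51 members rose and 0 fell, where 4.93% of all genes rose and 4.17% fell. These were Cdk1, Nek2, Ccnb2, Ccne1, Cdc45, Ccnd2 and Cdkn1a, with differences between 0.68 (Cdc45, adjusted p = 0.0428) and 1.94 (Nek2, adjusted p = 0.029). Arrays 101 to 112 were 3 of db/db nerve (110 and 111 among them) and 5 of db/+ nerve (101, 103, 104 and 106 among them). There 34 rose and 1 fell, where 9.85% of all genes rose and 8.67% fell. Both of these sets of arrays lie in this series alone, so a difference between the series cannot be told apart from them. With the series as a block on all arrays 34 rose and 1 fell too, where 14.5% of all genes rose and 27.4% passed in either direction. The median difference of mitosis members was 0.59 in arrays 404 to 411 and 2.18 in arrays 101 to 112, and that of replication members 0.26 and 0.99. In arrays 404 to 411 the difference was above 0 in 23 of 26 mitosis and 14 of 19 replication members, as in 46.4% of all genes. A test of the difference between the series gave 0 of 51 members past the adjusted threshold, and 24 of 51 had an unadjusted p below 0.05, as did 15.3% of all genes. Cdc6 had the smallest of these p-values (0.000175 unadjusted, 0.181 adjusted). It stood at −0.94 in arrays 404 to 411 and 0.65 in arrays 101 to 112.

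Genes of the cycle outside the list were also mostly higher in db/db nerve. Of 37 other mitosis genes 21 rose and 2 fell, with a median of 0.88, and of 23 other replication genes 11 rose and 1 fell, with a median of 0.46 (13.4% of all genes rose and 11.7% fell). Without db/+ 101, 103, 104 and 106, 3 of the mitosis genes rose and 1 fell, and 1 of the replication genes rose and 0 fell (6.12% of all genes rose and 6.78% fell). These lists were written with earlier results of these data known. Spc25, a subunit of the kinetochore, had levels of 9.10, 9.65 and 10.62 in db/db nerve, against 4.97, 6.57 and 8.09 in db/+ nerve. It rose by 3.42 ± 0.45 (adjusted p = 0.000229), without overlap between the groups, and passed without the 4 db/+ arrays (2.67, adjusted p = 0.00413). Cdca5, the cohesin protector sororin, and Cdca3 rose by 2.32 and 2.19 (adjusted p = 0.00174 and 0.00364). Dbf4, the activator of the origin kinase Cdc7, had levels of 8.79, 9.43 and 10.47 in db/db nerve, against 7.31, 8.35 and 8.46 in db/+ nerve and rose by 1.52 ± 0.28 (adjusted p = 0.00228). Orc1, a subunit of the origin recognition complex, and the replication factor gene Mcm10 rose by 1.35 and 1.03 (adjusted p = 0.00248 and 0.00321). The genes that fell were Bub3, Pttg1 and Dut, at −0.34, −0.32 and −0.50 (adjusted p = 0.0223, 0.00444 and 0.0369), and they were named after their values were seen.

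Marker lists of other cell types also held genes that passed on all arrays, where 13.4% of all genes rose and 11.7% fell. The mean of 8 adipocyte markers was 12.85 to 12.96 in db/db and 11.60 to 12.57 in db/+ nerve, and 5 of the 8 rose. The mean of 10 macrophage markers was 10.99 to 11.48 in db/db and 10.69 to 11.63 in db/+ nerve, and 3 of the 10 rose. Of 10 neuronal markers 8 fell, and of 9 fibroblast markers 3 fell, with means of 12.26 to 12.55 in db/db and 12.57 to 12.97 in db/+ nerve. Of 6 Schwann cell markers 3 fell, and of 8 T and NK cell markers 0 changed. Without db/+ 101, 103, 104 and 106, 3 adipocyte markers and 0 macrophage markers rose, and 4 neuronal, 3 fibroblast and 0 Schwann cell markers fell (6.12% of all genes rose and 6.78% fell). Mean levels of the lists of other blood cells overlapped between the genotypes, though some of their genes passed. On all arrays 2 of 8 B and plasma cell markers and 1 of 9 neutrophil and myeloid markers rose, and 0 of 6 erythroid markers changed. Without the 4 db/+ arrays 0 B and plasma cell markers changed, 1 neutrophil and myeloid marker rose and 3 fell, and 1 erythroid marker fell. B and plasma cell markers averaged 8.42 to 9.48 in db/db nerve, against 7.99 to 9.14 in db/+ nerve. Neutrophil and myeloid markers averaged 7.29 to 8.78 in db/db nerve, against 6.97 to 9.03 in db/+ nerve, and erythroid markers 5.97 to 7.70, against 5.72 to 7.08. Endothelial markers averaged 9.67 to 9.81 in db/db nerve, against 9.51 to 10.10 in db/+ nerve, and muscle markers 6.32 to 11.83, against 6.56 to 11.76. Of 8 endothelial markers 2 rose and 1 fell on all arrays, and 1 rose and 1 fell without the 4 db/+ arrays. Of 7 muscle markers 0 changed in either setting. By list mean, db/db 110 and 111 were the 2 highest db/db arrays for the mitosis and replication members and in none of the 11 marker lists. Both arrays were picked for their cell cycle levels, so this contrast was in part fixed in advance. For B and plasma cell markers 110 was the highest (9.48) and 111 the lowest (8.42) of the db/db arrays. For macrophage markers they stood at 11.44 and 11.35, below 409 at 11.48. In 3 of the 6 Schwann cell markers, as in 1870 of all 15437 genes, 110 and 111 were the 2 highest db/db arrays. Log2 levels have no zero, so no marker can be called absent, and the part of other cell types in the cell cycle differences was not tested.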

How the data were processed

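Sciatic nerve RNA was measured on 1-colour arrays after amplification and biotin labelling, as the labels' protocols state. Per the submitters' processing notes, the authors made the deposited log2 levels with RMA. RMA corrects background, makes arrays alike in distribution and compresses folds of dim genes. The version of RMA is not stated in any source at hand, nor is the definition of the probe sets, and depth has no counterpart beyond the number of arrays.

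Of 15479 probe sets 42 controls were left out. GEO's platform annotation named 14801 of the other 15437. Each group's arrays are those of its genotype label. A genotype model was run on all 15437 genes in limma 3.58.1 (functions lmFit and eBayes, R 4.3.3), with two-sided Benjamini-Hochberg adjusted p and a threshold of 0.05, and the fit was tested on simulated data. Members and lists were chosen with earlier results of these data known. All members are named. Levels are given for the 10 mitosis, 8 replication and 6 G1 members with the smallest p and for Top2a (the rule also named Mki67 and Pcna, not analysed here), and 3 genes are named from each list of other cycle genes. Alternatives covered moderation, normalization, a filter on dim genes, number series and arrays left out. Python 3.11.15 with pandas 2.3.3 did the rest.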

Additional observations from a re-analysis of the deposited data

Results flagged for a closer look

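Dixon's test was applied to 126 groups of arrays, and chance flags about 1 in 20 of them. It gave 2 samples far from the others of their group. For Mcm7, a subunit of the replicative helicase, db/db 110 was at 10.83, and the next db/db array was at 10.35. For Ccnd2, db/+ 101 was at 10.04, and the next db/+ array was at 10.75. No other member and none of the 3 list means by phase was flagged in either genotype. The test sets the outermost array against the next one, so it cannot readily flag db/db 110 where 111 is high too. Their mitosis means were 9.32 and 8.59, against 6.99 to 7.42 in the other db/db arrays. Whether 110 and 111 stand apart together is therefore not decided by this test.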

How the results depend on the processing

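The number of arrays limits the precision, and RMA gives no detection call for the 10 members among the dimmest 25% of genes. No paired analysis was possible because the genotypes share no sample number. Intensity trend, renewed quantile normalization, median centring, the filter on dim genes and the number series as a block left all counts within 1.5 times. For other settings the causes of the changes were not tested.

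On all arrays 3867 genes passed, 32 members rose and 1 fell. In arrays 404 to 411, which are fewer, 1404 genes passed, 7 members rose and 0 fell, with medians of 0.59 (mitosis) and 0.26 (replication). In arrays 101 to 112 the mitosis median was 2.18. Without db/+ 101, 103, 104 and 106, 1992 genes passed, 5 members rose and 0 fell, and with the series as a block on those arrays 9 rose and 1 fell (Cdkn1b). Without db/db 110 and 111, which were picked for their cell cycle levels, 19 rose. Without both sets 1639 genes passed, 8 members rose and 0 fell, with medians of 0.56 and 0.17. Leaving out 1 array gave 2893 to 4529 genes, 21 to 35 members that rose, 1 that fell, and medians of 1.09 to 1.64 and 0.64 to 0.85. The 21 came without db/db 111. Of the 33 calls 22 passed in all 13 such fits. Top2a passed in 12, Ccna2 and Tpx2 in 9, Aurka in 8 and Ccne2 in 7. Mcm2 and Mcm3 passed in 6, Mcm5 and Tyms in 5, E2f1 in 4 and Ttk in 3.

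Changes of sign were seen in members that did not pass on all arrays, and 0 of them passed after the change. In arrays 404 to 411 these were Bub1b (−0.041), Cdc20 (−0.032), Kif23 (−0.20), Cdc6 (−0.94), Mcm4 (−0.20), Mcm6 (−0.14), Mcm7 (−0.32) and Rrm1 (−0.18). In arrays 101 to 112 they were Ccnd1 (0.19) and Cdkn2c (0.23), and with the series as a block Cdkn2c (0.0064). Without the 4 db/+ arrays Cdc6 stood at −0.37 and Mcm7 at −0.16, and with the block on those arrays Cdk2, Cdc6, Mcm4 and Mcm7 at −0.0027, −0.39, −0.036 and −0.17. Without db/db 110 and 111 Cdk2, Cdc6 and Mcm4 stood at −0.18, −0.14 and −0.10. Without both sets Cdc20, Kif23, Cdk2, Cdc6, Mcm4, Mcm6, Mcm7 and Rrm1 stood at −0.024, −0.12, −0.13, −0.59, −0.17, −0.074, −0.28 and −0.12. With 1 array left out Cdkn2c ran from −0.15 to 0.045, Cdk2 from −0.054 to 0.20 and Cdc6 from −0.021 to 0.24.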

Other observations

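Of 32 other genes that control the cycle 8 rose and 1 fell, with a median of 0.20, where 13.4% of all genes rose and 11.7% fell. Without db/+ 101, 103, 104 and 106, 4 of the 32 rose and 2 fell, where 6.12% of all genes rose and 6.78% fell. Rb1, the retinoblastoma protein gene that restrains E2F factors, was at 11.04, 11.17 and 11.28 (lowest, median and highest) in db/db nerve, against 10.28, 10.53 and 10.72 in db/+ nerve. It rose by 0.66 ± 0.09 (SE, adjusted p = 0.000264). Ccng1, a cyclin of the DNA damage response, was at 10.39, 10.60 and 10.81 in db/db nerve, against 9.73, 9.86 and 10.22 in db/+ nerve, and rose by 0.67 ± 0.10 (adjusted p = 0.000448). E2f2, an activating E2F factor, was at 7.21, 7.77 and 8.11 in db/db nerve, against 6.03, 6.69 and 7.25 in db/+ nerve, and rose by 1.17 ± 0.21 (adjusted p = 0.00168). All 3 passed without db/+ 101, 103, 104 and 106 and in arrays 404 to 411 too. The gene that fell on all arrays was Cdkn2a, the inhibitor locus of ageing cells, by 0.96 (adjusted p = 0.0195), named after its value was seen.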
